A study of Mus musculus with 2 samples.

Results

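The 10 genes described here encode interferon-inducible GTPases. They are the guanylate-binding proteins Gbp2, Gbp3, Gbp4, Gbp5 and Gbp7 and the immunity-related GTPases Irgm1, Irgm2, Igtp, Iigp1 and Tgtp2. They were chosen by symbol, and all 10 were found among the 32285 genes of the deposited tables. The cells came from subcutaneous tumours that the mouse colorectal carcinoma line CT26 formed in wild-type BALB/c mice aged 5 weeks. One group of mice received WQ-2101, which the labels call a PHGDH inhibitor, at 20 mg/kg into the peritoneum each day. The other received vehicle. Dosing began at tumour volumes of about 100 mm3, and tumours were taken on day 17 after implantation, dissociated without a recorded sort and sequenced from the 3′ end in droplets. There was 1 library per group, both with the same batch label, and the labels do not say how many mice each holds. Differences between the libraries therefore have no replicate check, and every interval below covers counting error only, at 95%.

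Guanylate-binding proteins and immunity-related GTPases are cytosolic enzymes that interferons, above all interferon gamma, switch on in most cell types. They coat the vacuoles of intracellular parasites and bacteria and help to break them open, and several feed the inflammasome, which senses foreign material in the cytosol. Interferon gamma comes mainly from T and NK cells and acts on promoters through the GAS element. The ISRE element is bound by interferon regulatory factors such as IRF1.

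The promoters were searched for those elements, and the stretches that hold them are shown because the ISRE core is a feature that all 8 searched members share beyond the protein family. RefSeq sequence (GRCm38.p6) was used for these 8 members, in 9 windows of 250 bases before to 50 bases after an annotated start, since Gbp3 has 2 annotated starts. Promoters of Gbp4 and Iigp1 were not analysed here. The motifs were searched on both strands, the ISRE core GAAANNGAAA (TTTCNNTTTC on the other strand) and the GAS core TTCNNNGAA, which reads the same on both. The ISRE core was found for 8 of 8 members, in 8 of the 9 windows, against 3.44% of 32851 mouse promoters of the same length. The GAS core was found for 5 of 8 members, against 8.30% of promoters, and both together for 5 of 8, against 0.454%. A match describes the letters and is no proof of binding. Capitals mark the motifs, and each line runs 5′ to 3′ on the gene's own strand, from 110 to 11 bases before the start, or from 175 to 36 for Gbp5.
Gbp2 (chr3:142620553-142620652, plus strand): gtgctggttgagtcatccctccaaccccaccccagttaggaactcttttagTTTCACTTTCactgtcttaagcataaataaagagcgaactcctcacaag
Gbp3 (chr3:142559934-142560033, plus strand): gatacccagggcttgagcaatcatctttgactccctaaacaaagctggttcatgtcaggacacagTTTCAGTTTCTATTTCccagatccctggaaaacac
Gbp5 (chr3:142496759-142496898, plus strand): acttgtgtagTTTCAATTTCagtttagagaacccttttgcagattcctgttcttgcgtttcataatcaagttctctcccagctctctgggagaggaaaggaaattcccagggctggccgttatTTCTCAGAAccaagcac
Gbp7 (chr3:142530226-142530325, plus strand): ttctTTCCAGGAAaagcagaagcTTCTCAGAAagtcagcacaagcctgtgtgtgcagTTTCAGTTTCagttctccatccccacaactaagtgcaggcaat
Irgm1 (chr11:48871431-48871530, minus strand): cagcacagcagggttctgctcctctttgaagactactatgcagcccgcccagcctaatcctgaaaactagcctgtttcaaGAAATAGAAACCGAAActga
Irgm2 (chr11:58214867-58214966, plus strand): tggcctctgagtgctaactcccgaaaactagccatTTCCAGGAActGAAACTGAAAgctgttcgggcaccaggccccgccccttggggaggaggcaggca
Igtp (chr11:58199446-58199545, plus strand): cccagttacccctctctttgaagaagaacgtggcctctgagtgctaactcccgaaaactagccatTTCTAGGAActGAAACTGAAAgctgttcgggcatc
Tgtp2 (chr11:49064223-49064322, minus strand): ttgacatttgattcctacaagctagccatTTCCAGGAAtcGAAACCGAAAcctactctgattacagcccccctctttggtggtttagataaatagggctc

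The ISRE core began 59 bases before the start in Gbp2, 45 in Gbp3, 53 in Gbp7, 30 in Irgm1, 64 in Irgm2, 34 in Igtp and 70 in Tgtp2, and 165 in Gbp5. No GAS core was found for Gbp2, Gbp3 or Irgm1, and Gbp5 has another GAS core, 245 bases before the start, outside the stretch shown. The Gbp3 and Irgm1 stretches each hold a second, overlapping copy. In Irgm2, Igtp and Tgtp2 the GAS core ends 2 bases before the ISRE core, and the fused motif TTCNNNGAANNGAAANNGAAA was present in 5 of the 32851 promoters (0.0152%). Those are the promoters of Igtp, Irgm2, Tgtp2, its close copy Tgtp1, and Gm12185. This spacing was chosen for the search after the sequences had been read. In Gbp5 and Gbp7 the elements lie apart.

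The genes sit in clusters, which bears on how firmly each can be measured. In the GENCODE vM21 annotation of GRCm38, Gbp5 (ENSMUSG00000105504, 142493978 to 142522344), Gbp7 (ENSMUSG00000040253, 142530342 to 142550149), Gbp3 (ENSMUSG00000028268, 142560026 to 142573209) and Gbp2 (ENSMUSG00000028270, 142620602 to 142638008) follow each other on the plus strand of chromosome 3. Gbp4 (ENSMUSG00000079363) lies on the minus strand of chromosome 5, from 105115767 to 105139586, and overlaps Gbp8 and Gbp9 on the same strand. Of the 60-base windows in the last 500 bases of its transcripts, 15.1% also occur in transcripts of other genes, among them Gbp9 and Gbp6. Irgm1 (ENSMUSG00000046879, 48861968 to 48871683, minus strand), Tgtp2 (ENSMUSG00000078921, 49057194 to 49064206, minus strand), Igtp (ENSMUSG00000078853, 58199556 to 58207591, plus strand) and Irgm2 (ENSMUSG00000069874, 58199618 to 58222782, plus strand) lie on chromosome 11. Igtp and Irgm2 overlap on the same strand, although their transcript ends share no window. All of the end windows of Tgtp2 (100%) also occur in Tgtp1, so its level is uncertain. Iigp1 (ENSMUSG00000054072) lies elsewhere and shares no end window.

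The WQ-2101 library held 18142 barcodes and 185587327 UMIs, and the vehicle library 14374 barcodes and 184754398 UMIs. After filtering, 17293 WQ-2101 and 13668 vehicle cells remained, with a median of 8048 and 10742.5 UMIs. Cells were assigned to 11 classes by marker genes counted in each cell, which placed 63.5% of WQ-2101 and 75.0% of vehicle cells. Of the cells that remained, 2734 WQ-2101 and 520 vehicle cells had leukocyte genes between the limits for leukocytes and for tumour cells. The libraries therefore differ in how many such cells stayed out of both the leukocyte and the tumour classes. The libraries share 73 barcode sequences. Tumour cells held Hmga2 at 1236 and 1148 CPM (UMIs of a gene scaled to the total UMIs of the class) in WQ-2101 and vehicle, with the leukocyte gene Ptprc at 6.09 and 4.96 CPM, and macrophages held C1qa at 3216 and 3032 CPM. The endothelial class did not separate cleanly, since it carried Hmga2 at 502 and 287 CPM. Nor did the mural class, with Hmga2 at 164 and 314 CPM.

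Over all barcodes the 10 genes together made up 353 CPM in the WQ-2101 library and 223 CPM in the vehicle library. Tumour cells supplied 83.9% and 73.2% of the family's UMIs in placed cells, and macrophages 13.2% and 19.2%. These shares depend on the UMIs each class held, 114003213 and 118748366 in tumour cells and 15754686 and 20117851 in macrophages. The family's level in tumour cells, 357 and 203 CPM, was close to the level over all barcodes in WQ-2101 and below it in vehicle.

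By class, the summed level in the WQ-2101 library was 473 CPM in T cells (interval 437 to 511), 407 in macrophages (397 to 417), 363 in monocytes (328 to 401) and 357 in tumour cells (354 to 361). In the vehicle library the order among these was T cells at 483 CPM (450 to 518), macrophages at 315 (308 to 323), monocytes at 224 (209 to 239) and tumour cells at 203 (201 to 206). T cells stood highest of the 4 in both libraries. In WQ-2101 the monocyte interval overlaps the tumour interval and, narrowly, the macrophage interval. Overlap does not show equal levels, and no ratio between classes was taken. Classes with fewer than 100 cells in a library have levels only. Dendritic cells were at 260 and 243 CPM in WQ-2101 and vehicle, neutrophils at 179 and 157, NK cells at 183 and 146, fibroblasts at 343 and 266, endothelial cells at 420 and 690 and mural cells at 435 and 557. The 128 WQ-2101 B cells were at 126 CPM, and only 3 B cells were placed in vehicle. The intervals of the smaller classes overlap between the libraries except for the endothelial class, with 9 and 36 cells, where 301 to 570 CPM in WQ-2101 lay below 608 to 779 CPM in vehicle. In fibroblasts the overlap is narrow, at 288 to 405 CPM in WQ-2101 and 239 to 294 CPM in vehicle, so it does not show equal levels.

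**Figure D1:**
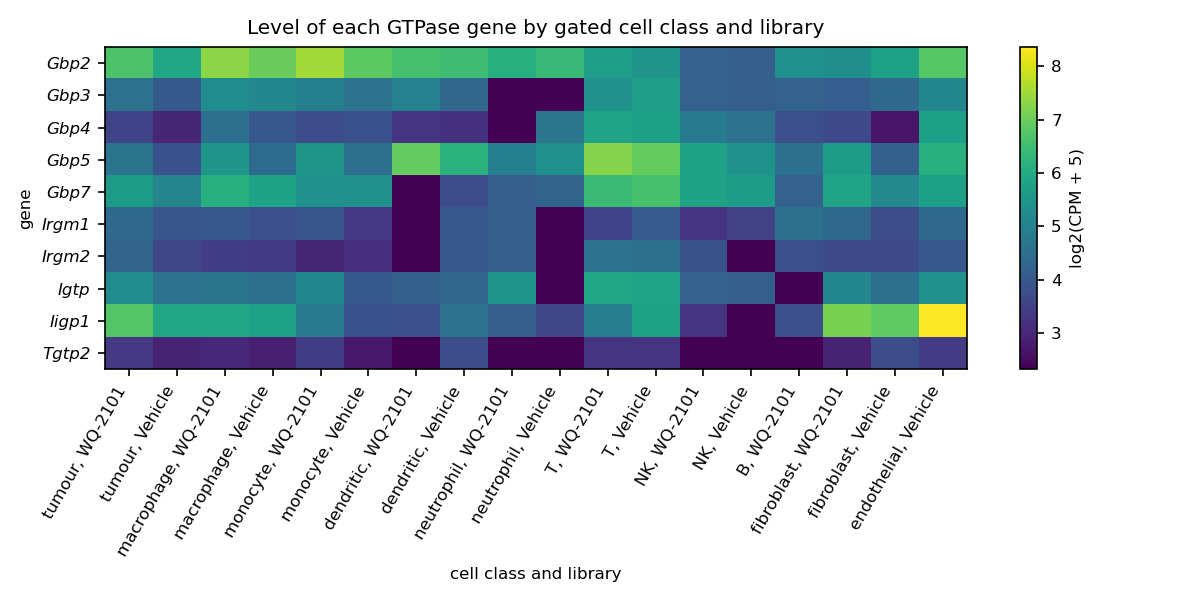
Level of each of the 10 genes, as log2(CPM + 5), in each class with at least 30 cells in a library, with the WQ-2101 column left of the vehicle column. Iigp1 is brightest in endothelial cells, fibroblasts and tumour cells, Gbp2 in monocytes and macrophages, and Gbp5 in T and dendritic cells.

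The members are not spread alike over the classes. Iigp1, an effector that loads onto parasite vacuoles, stood at 134 and 111 CPM in WQ-2101 and vehicle fibroblasts. It was at 203 and 322 CPM in mural cells and at 102 and 56.4 CPM in tumour cells. The mural values rest on 21 and 41 UMIs from 17 cells in each library. Iigp1 was at 24.8 and 50.7 CPM in T cells and at 4.58 and 0 CPM in NK cells. There 0 UMIs in 30 vehicle cells has an exact Poisson upper limit of 23.4 CPM. Gbp2, which coats vacuoles and bacteria, was at 180 and 110 CPM in monocytes, 155 and 122 in macrophages, 96.9 and 55.4 in tumour cells, 47.5 and 38.9 in T cells and 13.7 and 12.7 in NK cells. Gbp5, linked to assembly of the NLRP3 inflammasome, ran the other way, with 146 and 118 CPM in T cells, 114 and 67.8 in dendritic cells, 39.9 and 16.6 in macrophages and 19.9 and 9.47 in tumour cells. Gbp4 was also high in T cells, at 52.6 and 48.8 CPM, against 6.61 and 2.86 in tumour cells.

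Within tumour cells every member was higher in the WQ-2101 library, by raw ratios of 1.53 to 2.31, and all 10 counting intervals lay above 1. The summed level was 357 CPM in WQ-2101 and 203 CPM in vehicle, a ratio of 1.76 (1.73 to 1.78). Of the 8 members with a mean of at least 5 CPM, 5 were higher by 1.5-fold or more on the CPM + 5 scale and 0 were lower. Of all 9995 genes tested in tumour cells, 0.910% were higher by that rule and 0.400% lower. The median log2 ratio of the 8 members was 0.66, beside -0.01 over all genes tested. With 1 library per group these are differences between 2 libraries, not shown to be effects of the compound.

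Among the guanylate-binding proteins, Gbp2 was at 96.9 CPM in WQ-2101 and 55.4 CPM in vehicle tumour cells (ratio 1.75, 1.70 to 1.80), and Gbp5 at 19.9 and 9.47 (2.10, 1.95 to 2.25). Gbp7, tied to oxidative defence in mouse macrophages, was at 44.2 and 28.6 CPM (1.54, 1.48 to 1.61), short of the threshold, as was Gbp3 at 19.2 and 11.4 (1.69, 1.58 to 1.81). Gbp4, with 6.61 and 2.86 CPM, had the largest raw ratio, 2.31 (2.03 to 2.63), but its mean was under 5 CPM. The pseudocount holds down the log2 ratio of such low genes.

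The immunity-related GTPases include regulators, Irgm1, Irgm2 and Igtp, which sit on the cell's own membranes and keep the effectors inactive there, and effectors, Iigp1 and Tgtp2. In tumour cells Igtp was at 33.6 CPM in WQ-2101 and 19.1 in vehicle (1.75, 1.67 to 1.85), Irgm2 at 14.2 and 7.23 (1.96, 1.80 to 2.13) and Irgm1 at 15.8 and 10.3 (1.53, 1.42 to 1.65). Iigp1 was at 102 and 56.4 (1.80, 1.75 to 1.86) and Tgtp2 at 5.08 and 2.56 (1.98, 1.72 to 2.29). Irgm2 and Igtp among the regulators and Iigp1 among the effectors passed the threshold.

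**Figure D2:**
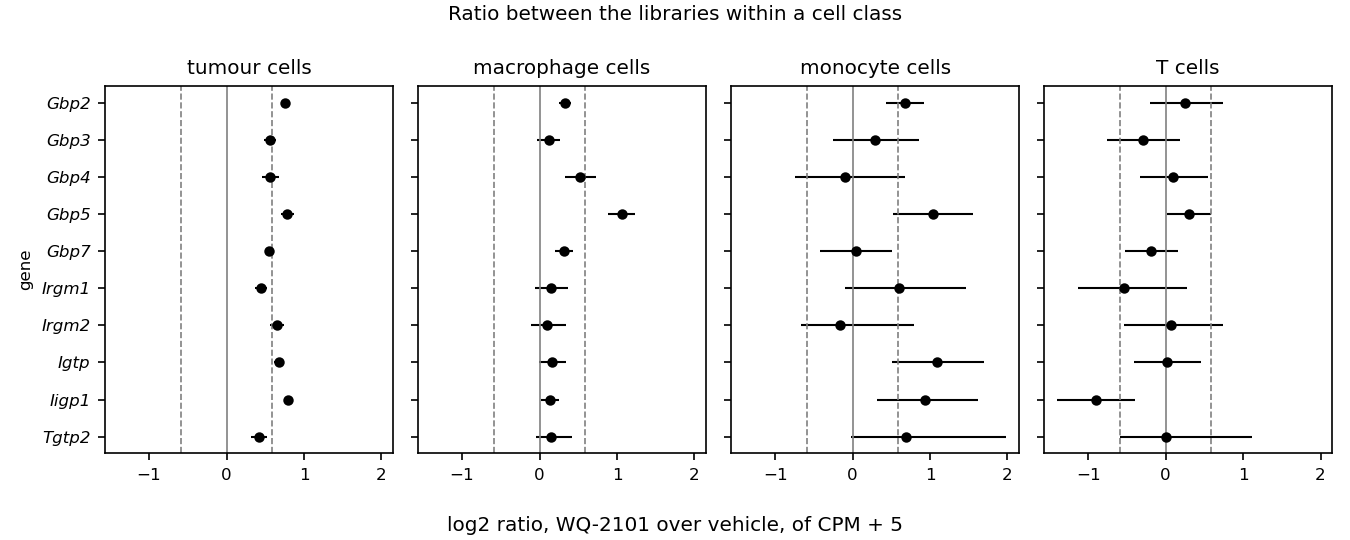
Log2 ratio of WQ-2101 over vehicle on the CPM + 5 scale for each gene in the 4 compared classes, with intervals for counting error and dashed lines at 1.5-fold. All 10 tumour points lie to the right of 0, macrophages have Gbp5 alone past the line, and Iigp1 lies far to the left in T cells.

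In macrophages 1 member stood apart. Gbp5 was at 39.9 CPM in WQ-2101 and 16.6 CPM in vehicle, a ratio of 2.41 (2.11 to 2.76), and was the 1 of 9 members passing 5 CPM that was higher by the rule, with 0 lower. Across 9313 genes in macrophages 1.26% were higher and 0.569% lower. Gbp4 was at 18.0 and 10.9 CPM (1.64, 1.37 to 1.97), Gbp2 at 155 and 122 (1.27, 1.20 to 1.34) and Gbp7 at 65.6 and 51.7 (1.27, 1.16 to 1.38). Iigp1 was nearly level, at 55.7 and 50.3 CPM (1.11, 1.01 to 1.21). The intervals of Gbp3, Irgm1, Irgm2, Igtp and Tgtp2 included 1. The summed ratio was 1.29 (1.25 to 1.34), below the tumour ratio of 1.76, and the 2 intervals do not overlap, though the difference itself was not tested.

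In monocytes, from 211 WQ-2101 and 583 vehicle cells, 5 of 8 members passing 5 CPM were higher and 0 lower, where 4.56% of 9088 genes were higher and 4.40% lower. Igtp was at 29.9 and 11.4 CPM (2.62, 1.61 to 4.24), Iigp1 at 22.5 and 9.30 (2.42, 1.37 to 4.18), Gbp5 at 41.2 and 17.5 (2.35, 1.57 to 3.49) and Gbp2 at 180 and 110 (1.63, 1.37 to 1.94). The fifth, Irgm1, rests on 11 and 19 UMIs, and its interval (0.877 to 4.51) includes 1. Gbp4 and Gbp7 stood at 8.42 and 9.30 CPM and at 37.4 and 36.1 CPM.

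T cells differed from these classes. The summed level was 473 CPM in WQ-2101 and 483 CPM in vehicle (0.980, 0.881 to 1.09). Of 9 members passing 5 CPM 0 were higher and 1 was lower, where 3.44% of 9685 genes were higher and 5.27% lower. The lower gene was Iigp1, at 24.8 and 50.7 CPM, or 34 and 82 UMIs (0.490, 0.319 to 0.739). Gbp5 was at 146 and 118 CPM (1.24, 1.01 to 1.52). Summed dendritic markers in the T cell class were 116 CPM in WQ-2101 (8 of 10 detected, Xcr1 and Siglech at 0) and 189 CPM in vehicle (9 of 10 detected, Siglech at 0), and MHC class II genes summed to 1158 and 1829 CPM. Their part in the Iigp1 value was not tested.

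The transcript of interferon gamma itself differed in T cells. Ifng was at 413 CPM (379 to 448) in WQ-2101 and 153 CPM (135 to 173) in vehicle T cells, and at 137 and 114 CPM in NK cells. In tumour cells it was at 0.579 and 0.168 CPM. The receptor chains of tumour cells were level, with Ifngr1 at 39.3 and 40.4 CPM and Ifngr2 at 28.7 and 28.9 CPM. Irf1, a transcription factor of the response, was at 189 and 132 CPM. The brakes Socs1 and Socs3 were at 37.2 and 46.1 CPM and at 69.7 and 105 CPM. Ifnb1, the type I interferon, was at 10.4 CPM (8.88 to 12.1) in WQ-2101 and 3.63 CPM (2.84 to 4.56) in vehicle macrophages, and at or below 0.0702 CPM in tumour cells of both libraries.

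Other genes of the response were set beside the family in tumour cells. Of interferon gamma targets that are not GTPases, 5 of 17 passing 5 CPM were higher and 0 lower, with a median log2 ratio of 0.47. Among them were the chemokine Cxcl9 (29.6 and 13.7 CPM in WQ-2101 and vehicle), the immunoproteasome subunit Psmb9 (51.7 and 30.7), the peptide transporter Tap1 (43.1 and 25.5) and the serpin Serpina3g (14.6 and 7.92). The chemokine Cxcl10, in the same list, was at 169 and 157 CPM. MHC class II genes had 4 of 6 higher, 0 lower and a median of 0.93. Macrophage markers in the same tumour cells, 13 of 13 detected, summed to 253 and 236 CPM, and their part in the MHC class II values was not tested. Type I interferon targets had 0 of 16 higher, 0 lower and a median of 0.16, with Isg15 at 14.6 and 17.5 CPM. Further GTPases of both families had 0 of 5 higher or lower and a median of 0.48, with Gbp6 at 8.09 and 4.31 CPM and Ifi47 at 14.6 and 10.7. The 12 conjugation genes passing 5 CPM, such as Atg5, that place the GTPases on vacuoles had 0 past the threshold and a median of 0.03, and the 7 inflammasome genes 0 past it and a median of 0.01.

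In macrophages the interferon gamma list had 6 of 21 higher and 0 lower (median 0.33), with the nitric oxide synthase Nos2 at 35.4 and 12.1 CPM and the checkpoint ligand Cd274 at 203 and 117. The type I list had 3 of 19 higher and 0 lower (median 0.22), namely Rsad2 at 173 and 67.0 CPM, Ifih1 at 214 and 89.2 and Oasl1 at 89.9 and 45.5. In monocytes the 2 lists had 9 of 21 higher each and 0 lower. In T cells the interferon gamma list had 1 of 18 higher and 4 lower (median -0.20), with Cxcl10 at 402 and 654 CPM.

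Counted per cell, with each cell thinned to 2000 UMIs because the libraries differ in depth, the family was found in more tumour cells of the WQ-2101 library. At least 1 member was detected in 31.6% (30.5 to 32.6) of 7641 WQ-2101 cells and 19.9% (19.0 to 20.9) of 6568 vehicle cells, after 162 and 42 shallower cells were left out. Unthinned, the shares were 70.5% and 59.7%. At least 3 members were detected in 5.52% (5.02 to 6.06) and 3.01% (2.61 to 3.46) of thinned cells. Iigp1 was detected in 11.6% and 6.15%, and Gbp2 in 12.1% and 7.81%. In macrophages the share with at least 1 member was 38.5% and 32.3%, in monocytes 39.3% and 24.6%, and in T cells 45.0% and 48.0%, where the intervals overlap. Free RNA can give UMIs in cells that do not express a gene. The C1q genes of macrophages reached 1.04% and 0.796% of their macrophage level in tumour cells. Macrophage RNA at that share would bring 4.23 and 2.51 CPM of the family's 357 and 203 CPM. The tumour gate had already left out cells with more C1q and Lyz2, so this share may be too low.

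**Figure D3:**
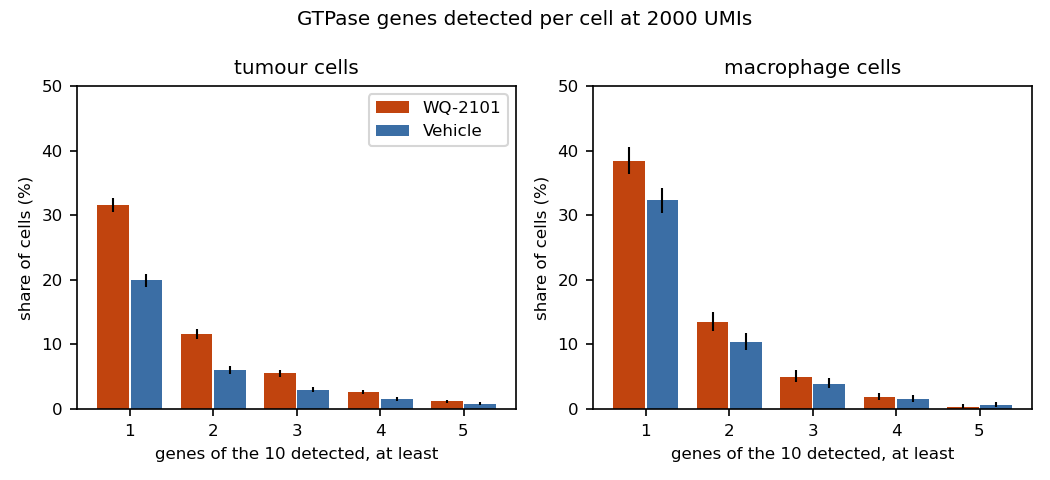
Share of tumour cells (left) and macrophages (right) with at least 1 to 5 of the 10 genes detected at 2000 UMIs per cell, WQ-2101 left of vehicle, with exact binomial intervals. Tumour bars of WQ-2101 are above those of vehicle, 31.6% and 19.9% for at least 1 gene.

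In tumour cells of both libraries each other member was detected in a larger share of cells with Iigp1, or with Gbp2, than without. Among tumour cells with an Iigp1 UMI, 36.7% (33.5 to 40.0) of 885 WQ-2101 cells and 38.6% (33.8 to 43.6) of 404 vehicle cells also had Gbp2, against 8.90% and 5.79% of cells without Iigp1. For Igtp the shares were 21.2% and 22.0% in cells with Iigp1, against 3.82% and 2.16% in cells without it. The intervals of the libraries overlap in the cells with Iigp1. In macrophages Gbp2 was detected in 39.3% and 42.0% of cells with Iigp1, against 17.5% and 13.9% of those without. The gap was not clear for every pair outside tumour cells. Irgm2 was detected in 1.22% and 1.73% of macrophages with Gbp2, against 0.919% and 1.15% of those without, with overlapping intervals.

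Tumour cells with 3 or more members detected after thinning carried more of the other interferon transcripts in both libraries. In WQ-2101, interferon gamma targets that are not GTPases summed to 4274 CPM in the 422 cells with 3 or more members and 899 CPM in the 5228 cells with 0. In vehicle they summed to 4943 CPM in 198 such cells and 705 CPM in 5260 cells with 0. MHC class II genes were at 680 and 342 CPM in these WQ-2101 cells, and at 515 and 177 CPM in the vehicle cells. Type I targets were at 856 and 196 CPM in WQ-2101, and at 1242 and 163 CPM in vehicle. Leukocyte genes were flat, between 41.7 and 46.9 CPM in all bins of both libraries, and macrophage markers lay between 225 and 267 CPM. The tumour gate set upper limits on these leukocyte genes, and on C1q and Lyz2 among the macrophage markers. Their low and even levels are therefore no independent check on macrophage RNA. Members were counted after thinning and levels from all UMIs, so a cell with 0 detected can still carry members. Unthinned, 70.5% of WQ-2101 and 59.7% of vehicle tumour cells had at least 1. Among cells with 0 members detected after thinning, MHC class II genes were at 342 CPM in WQ-2101 and 177 CPM in vehicle. In macrophages those genes summed to 13923 and 10145 CPM. The part of macrophage RNA in the MHC class II values of tumour cells was not tested.

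**Figure D4:**
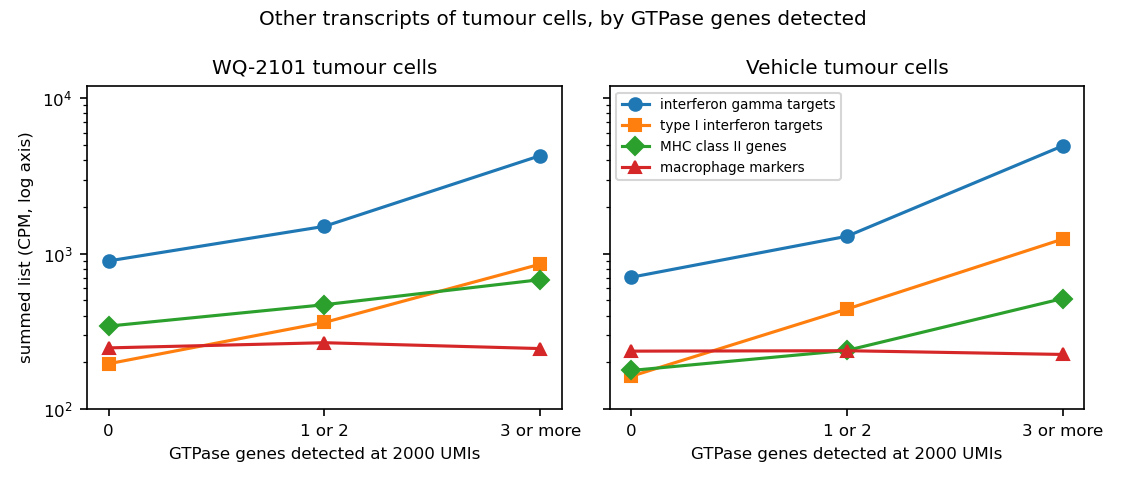
Summed level of 4 gene lists (CPM, log axis) in tumour cells with 0, 1 or 2, and 3 or more of the 10 genes detected at 2000 UMIs, WQ-2101 left and vehicle right. Interferon gamma targets, type I targets and MHC class II genes climb with the number detected and macrophage markers do not. The tumour gate set an upper limit on C1q and Lyz2, which are among those markers.

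The higher level in WQ-2101 was found in each of the 7 tumour clusters with at least 50 cells in each library, which were made without the 10 genes. The ratio of the summed level ran from 1.36 to 2.39, and 10 of 10 members were higher in 6 of the clusters and 9 of 10 in the other. The highest levels, 1298 CPM in WQ-2101 and 957 in vehicle (ratio 1.36), were in a cluster led by Ifit3, Ifit1, Isg15 and Rsad2, genes of the type I response. A cluster led by Ccl7, Ccl2, Il1rl1 and Cxcl10 was at 873 and 422 CPM (2.07, 2.02 to 2.12). The lowest vehicle level, 75.5 CPM, against 180 CPM in WQ-2101, was in a cluster led by Cryab and Mt1, stress genes, and it had the largest ratio, 2.39. With every cluster given the same share in both libraries, an alternative added after the data were seen, the tumour log2 ratio was 0.95 and not 0.80. In the 3 macrophage clusters the summed ratio ran from 1.25 to 1.38. There 10 of 10 members were higher at the ratio of 1.38, 9 of 10 at 1.28 and 6 of 10 at 1.25. The cluster with 6 of 10 was led by Mmp12 and Mmp13.

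**Figure D5:**
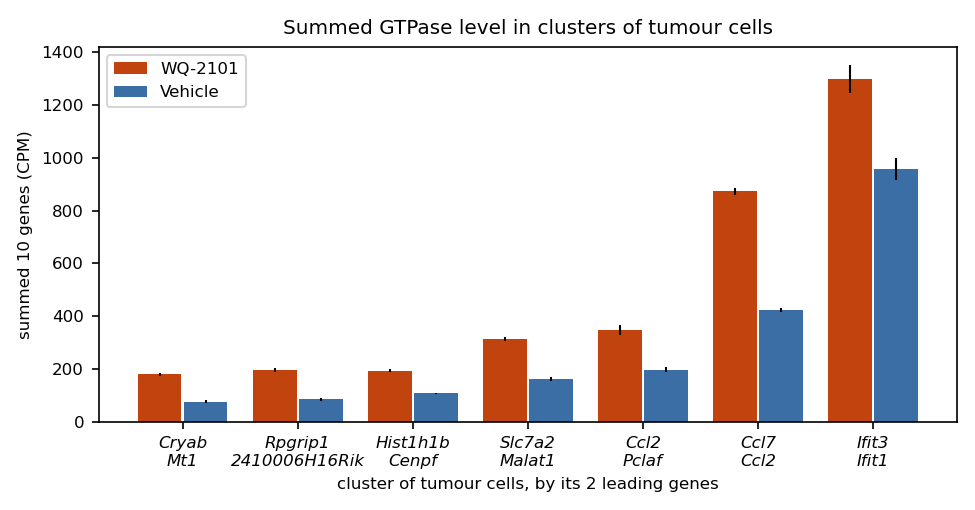
Summed level of the 10 genes (CPM) in 7 clusters of tumour cells, each named by its 2 leading genes and ordered by the vehicle level, WQ-2101 left of vehicle, with exact Poisson intervals. Every WQ-2101 bar is above its vehicle bar, from 180 and 75.5 CPM in the Cryab cluster to 1298 and 957 CPM in the Ifit3 cluster.

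Across the 16 class-by-library profiles with at least 150000 UMIs, the 10 genes whose log2(CPM + 5) was most like the summed family, of 10782 ranked, had Pearson correlations of 0.76 to 0.81. They were Dyrk1b, Cdipt, Vps26b, Cox6c, 4930503L19Rik, Prdm1, Aopep, Gbp6, Snx11 and Rtp4. Of these Gbp6 is a GTPase and Rtp4 an interferon target. The profiles share 2 libraries, and members correlated with the sum at 0.23 (Irgm1) to 0.85 (Igtp).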

How the data were processed

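The deposited matrices hold raw UMI counts per gene and barcode. The file headers name Cell Ranger 7.2.0, but GRCm38 and a different release, 2.2.2, stand in the submitters' processing notes. For the annotation and for intron reads the sources used here give nothing. Barcodes were kept with at least 500 UMIs, 300 genes and at most 15% mitochondrial UMIs. Scrublet, with a rate of 0.8% per 1000 barcodes, marked 753 WQ-2101 and 545 vehicle barcodes, which were left out. Classes were set per cell from marker genes per 10000 UMIs. The gate genes were trimmed from the marker lists after the data were seen. Counts were summed per class and library, as CPM with exact Poisson intervals and exact conditional intervals of the ratio. Higher or lower meant 1.5-fold on CPM + 5 among genes of mean 5 CPM or more, in classes of at least 100 cells per library. Shares have Clopper-Pearson intervals. Leiden clusters (2000 variable genes, 30 components, 15 neighbours, resolution 1) served as an alternative. All 10 members were named. From the lists, genes past the threshold could be named and not all were, and list genes named without passing it were chosen after their values were seen. Tools were Python 3.11.15, scanpy 1.11.5, scipy 1.17.1, numpy 2.4.6 and matplotlib 3.10.9. The ratio step was tested on simulated data. With 1 library per group no test was made. The members and lists were chosen with earlier results of these data known. Other alternatives and their effects are given in the closing section. Some results are not reported here.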

Additional observations from a re-analysis of the deposited data

Results flagged for a closer look

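Iigp1 went opposite ways between classes. Its log2 ratio of WQ-2101 over vehicle was 0.80 in tumour cells and 0.94 in monocytes, and -0.90 in T cells. The T cell value rests on 34 and 82 UMIs. There 1 of 9 members was lower by the rule, where 5.27% of 9685 genes were. The difference between classes was not tested. Over the alternatives run the T cell value ranged from -1.29 to -0.74, the tumour value from 0.75 to 0.96 and the monocyte value from 0.60 to 1.19.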

How the results depend on the processing

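No paired analysis was possible because each group has 1 library. The log2 ratio of the summed family (main values 0.80 in tumour cells, 0.36 in macrophages, 0.69 in monocytes) was 0.91 in monocytes by Leiden clusters, 0.73 in tumour cells and 0.27 in macrophages with cells weighted alike, 0.95 in tumour cells when clusters were given equal shares in both libraries, and 0.76 in tumour cells and 0.44 in macrophages without Gbp2 and Iigp1, the last 2 settings being added after the data were seen. Members lower in T cells, 1 in the main setting, numbered 3 by Leiden clusters, 2 with stricter gates, 2 with cells weighted alike, 2 with a pseudocount of 1 CPM and 0 at 2-fold. Members higher in macrophages, 1 in the main setting, numbered 2 with stricter gates and 2 with a pseudocount of 1 CPM. Members higher in tumour cells, 5 in the main setting, numbered 3 with a pseudocount of 10 CPM, 3 with a minimum of 20 CPM and 0 at 2-fold. Members higher in monocytes, 5 in the main setting, numbered 3 with a minimum of 20 CPM and 2 at 2-fold. The share of all genes past the threshold is given for the main setting only. The member counts under the alternatives therefore have no background beside them. At 5000 UMIs per cell the share ratio for at least 1 member was 1.47 in tumour cells, against 1.59, and 1.11 in T cells, against 0.938, and the T cell ratio for at least 3 members turned to 1.62, against 0.627, with intervals that include 1. The causes were not tested. Of the single members' log2 ratios, 84 of 110 in tumour cells, 99 of 100 in macrophages, 97 of 100 in monocytes and 100 of 100 in T cells moved by less than counting error. Of values past the threshold 0 changed sign, but values short of it took both signs over the alternatives for Gbp2, Gbp4, Igtp, Irgm2 and Tgtp2 in T cells and for Gbp7 in monocytes. The free RNA subtraction was not run for macrophages, which set its scale. Depth limits the small classes most, and a count of 0 in vehicle NK cells has an exact Poisson upper limit of 23.4 CPM.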
